A study of Homo sapiens with 6 samples.

Results

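The 14q32 imprinted miRNA cluster was followed in small RNA libraries of exosomes (vesicles shed by cells) from HCT116, an established human colorectal cancer line. Its members were taken by name as any arm of 49 miRNAs, from miR-770 to miR-656 in genome order, which gave 92 of the 2575 mature miRNA entries listed for each library. HCT116 cells at passage 16 to 19 had been co-cultured for 6 h at a multiplicity of infection of 500 with ETBF, enterotoxigenic Bacteroides fragilis, a colonic bacterium that secretes a toxin, or kept in bacterial medium without it. There were 6 libraries, 3 untreated-labelled and 3 ETBF-labelled. No genotype or transgene distinguished the groups, and all 6 libraries came from the same line. In 6 of 6 libraries the name of the deposited file contradicts the sample title. Groups here follow the titles, as "untreated-labelled" and "ETBF-labelled" libraries, and every direction below is the reverse if the file names are right.

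The cluster lies in the DLK1-DIO3 imprinted domain of chromosome 14. Its miRNAs are transcribed from the maternal chromosome together with the long non-coding RNAs MEG3 and MEG8, and the protein-coding genes DLK1 and RTL1 from the paternal one. The miRNAs are known from brain, placenta and embryonic tissue, and loss of their expression has been described in many tumours. Hairpins are counted by miRNA name throughout, so miR-329, miR-376a and miR-1185, with 2 loci each, count once and are placed by their first locus. In GENCODE release 29, 13 of the 49 hairpins lay inside introns of MEG8, 6 inside introns of MIR381HG and 6 inside MEG9, miR-410 in an exon. Another 5, miR-431, miR-433, miR-127, miR-432 and miR-136, lay opposite the RTL1 exon, whose transcript they can pair with over their full length, and miR-770 lay in an exon of MEG3. miR-493, miR-337 and miR-665 lay only in an intron of the unnamed transcript AL117190.1, and 15 hairpins had no annotated host. Coordinates are left out because these annotations are not on the build of the submitters.

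Of the 92 entries, 91 matched a mature sequence in RefSeq (GRCh38.p14), all on the forward strand. The sequences of the 13 members with enough counts to be tested are given first, because the comparison of the groups rests on them. They run 5′ to 3′, with the seed, bases 2 to 8, in capitals. The seed is the stretch through which a miRNA recognises most of its targets.
miR-127-5p: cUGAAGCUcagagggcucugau
miR-127-3p: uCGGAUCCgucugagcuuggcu
miR-136-3p: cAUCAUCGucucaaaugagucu
miR-370-3p: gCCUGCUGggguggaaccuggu
miR-379-5p: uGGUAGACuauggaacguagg
miR-411-5p: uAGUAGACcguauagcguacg
miR-494-3p: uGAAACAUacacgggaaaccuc
miR-495-3p: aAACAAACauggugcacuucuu
miR-381-3p: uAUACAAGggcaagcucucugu
miR-889-3p: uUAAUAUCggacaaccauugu
miR-382-3p: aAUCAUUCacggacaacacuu
miR-134-5p: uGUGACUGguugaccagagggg
miR-409-3p: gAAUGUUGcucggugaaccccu
These 13 members had 13 different seeds, so that no seed was represented by more than 1 tested member.

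Depth was low, at 200207 to 417321 counts per library, and 717 entries (27.8%) had a count in any library. By edgeR, 28 of 195 tested entries (14.4%) had an adjusted p under 0.05, 7 lower (3.59%) and 21 higher (10.8%) with the ETBF label. Of the epithelial markers listed for the gut, 10 of 10 were detected. They summed to 46180 to 47642 CPM with the untreated label and 38431 to 43837 CPM with the ETBF label. The list includes miR-203a and the miR-200 family, which are not particular to the gut, and miR-203a held 20494 of its 75767 pooled counts. CPM stands for the usual depth-normalised count, here after scaling libraries by the trimmed mean of M-values (TMM). Where nothing says that libraries came from separate cultures, p-values cover only variation among these libraries, possibly technical.

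Most hairpins of the cluster gave counts, but few gave many. Of the 92 members, 65 had a count in at least 1 library, 31 in all 6 libraries, and 27 in none. The 65 came from 42 of the 49 hairpins. The 7 hairpins with no count were miR-770, miR-665, miR-1193, miR-300, miR-544a, miR-668 and miR-541. A count of 0 allows a share of up to 0.000719% to 0.00150% of a library, counting error only. These hairpins were therefore not detected at this depth, rather than shown to be absent. Each library held between 41 and 54 members, and 37 to 50 when all were thinned to 200207 counts.

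**Figure D1:**
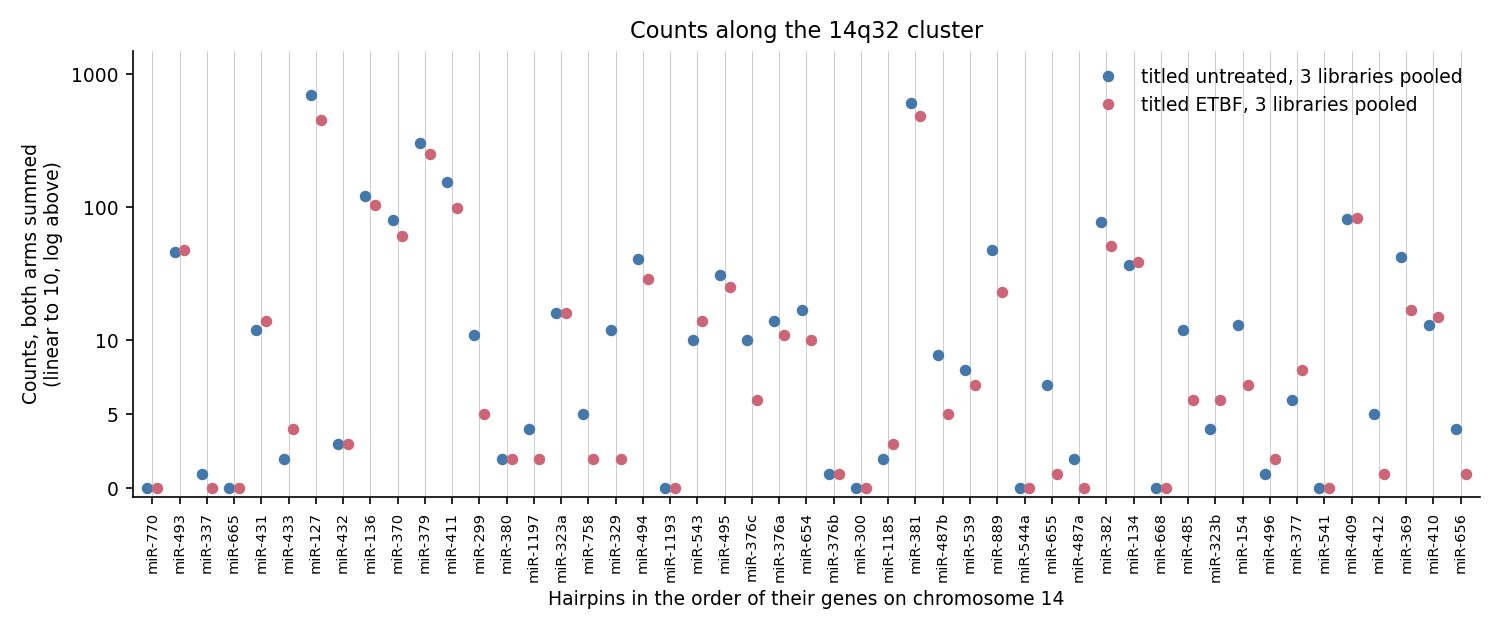
Counts of each of the 49 hairpins, both arms summed, with the hairpins in genome order on the horizontal axis; each point pools the 3 libraries of a titled group, on an axis that is linear to 10 and logarithmic above. miR-127, miR-381 and miR-379 stand above the rest in both groups, and 7 hairpins are at 0.

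The members held 4495 counts over the 6 libraries, of which miR-381-3p alone took 24.4% and miR-381-3p with miR-127-3p 46.4%. The 10 most abundant members took 80.8%. miR-381-3p ranked 75th and miR-127-3p 78th among all entries by pooled counts, so no member was among the dominant exosomal miRNAs. The stretch around RTL1, from miR-770 to miR-136, has 9 hairpins and gave 1504 counts (33.5%). miR-370 gave 141 counts (3.14%), and the long stretch from miR-379 to miR-656, with 39 hairpins, gave 2850 (63.4%). Neighbouring hairpins differed widely: miR-381 held 1098 counts, while miR-300, close by in the same stretch, held 0.

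The summed level of the cluster was lower with the ETBF label once libraries were TMM-scaled. The members held 625, 1019 and 924 counts with the untreated label and 711, 449 and 767 with the ETBF label. Scaled, this was 3041, 2814 and 2959 CPM against 2394, 2026 and 2376 CPM. The groups did not overlap on that scale, and the means were 2938 ± 114.5 and 2265 ± 207.7 CPM (SD, n = 3), a ratio of 0.771. As an unscaled share of all counts the groups did overlap: 0.312%, 0.276% and 0.315% against 0.284%, 0.202% and 0.184%, with means of 0.301% ± 0.0216 and 0.223% ± 0.0533 (SD, n = 3). ETBF-labelled replicate 1 lay inside the untreated-labelled range. No p is given for this sum, because the members were chosen with earlier results known.

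The sum was lower in both long stretches of the cluster, but not in every hairpin. The stretch from miR-770 to miR-136 summed to 1009 ± 65.9 CPM with the untreated label and 735.7 ± 76.3 CPM with the ETBF label (SD, n = 3), a ratio of 0.729. There the miR-127 hairpin, at 793.3 and 532.2 CPM, carried most of the difference. miR-136 stood at 139.5 and 123.1 CPM. By contrast, miR-493 (54.2 and 55.5 CPM), miR-431 (14.3 and 17.1) and miR-433 (2.54 and 4.22) were higher with the ETBF label. The stretch from miR-379 to miR-656 summed to 1842 ± 75.3 and 1457 ± 140.6 CPM, a ratio of 0.791. On the TMM scale, the lowest untreated-labelled library stood above the highest ETBF-labelled library in both stretches. As an unscaled share of all counts, ETBF-labelled replicate 1 lay inside the untreated-labelled range for the stretch from miR-379 to miR-656. miR-370 overlapped, at 86.9 ± 22.4 and 72.6 ± 4.67 CPM. The 79 members that were not tested summed to 429.3 ± 11.0 and 342.2 ± 18.01 CPM, a ratio of 0.797. They too did not overlap on the TMM scale, at 422.6 to 441.9 CPM against 322.1 to 357.0 CPM. Their unscaled shares did overlap, again through ETBF-labelled replicate 1.

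**Figure D2:**
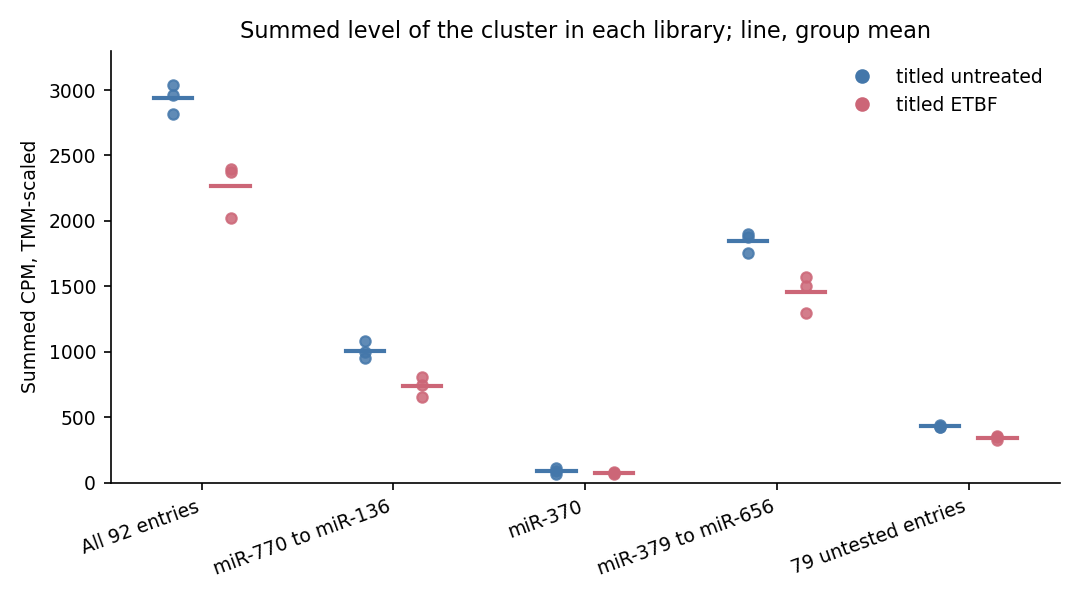
Summed TMM-scaled CPM of all 92 entries, of 3 stretches in genome order and of the 79 untested entries; each point is a library and each line a group mean. The 3 untreated-labelled libraries lie above the 3 ETBF-labelled libraries in every column except miR-370.

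Summed levels of other miRNA groups were also lower on this scale. The summed CPM with the ETBF label was 0.867 of that with the untreated label for the 10 gut epithelial markers, 0.875 for 7 stromal and endothelial markers, 0.883 for 15 markers of other tissues and 0.904 for 7 blood-cell markers. Single markers did not all follow these sums. In the same order, the log2 fold change was negative in 7 of 9, 6 of 7, 5 of 8 and 3 of 5 tested entries. Among markers of other tissues, miR-9-3p was higher, at 9 and 96 pooled counts (log2 fold change 3.40, edgeR adjusted p = 0.00705). Stromal and endothelial markers were detected 7 of 7, at 12397 to 13987 and 10638 to 11706 CPM. Markers of other tissues were detected 13 of 15, at 27181 to 27827 and 22565 to 25822 CPM, with the cardiac miR-208a-3p and miR-208b-3p at 0. Blood-cell markers were detected 7 of 7, at 669.3 to 729.2 and 527.8 to 693.8 CPM. All 55 entries of the placental chromosome 19 cluster were at 0. The entries miR-7641, miR-6087 and miR-1246 together stood at 204406 CPM with the untreated label and 6942 CPM with the ETBF label, and without them in the total the share of the 14q32 members was 0.384% and 0.225%. The part of any of these RNAs in the TMM-scaled result for the 14q32 members was not tested. In bulk RNA, fewer vesicles of a kind and less of a miRNA per vesicle cannot be told apart.

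Of the 13 tested members, 2 passed an adjusted p of 0.05 (edgeR, adjusted over all 195 tested entries), both lower with the ETBF label, and 11 did not pass. Over all tested entries 3.59% were called lower and 10.8% higher. Of the 2 calls, that of miR-889-3p concerns a member that the count filter kept only through the untreated-labelled libraries, where it was high, so the number of calls is not read against these shares. The other 12 tested members reached the filter's minimum in libraries of both groups, though not always equally. miR-382-3p, miR-494-3p and miR-495-3p, all with negative log2 fold changes, did so in 2 untreated-labelled and 1 ETBF-labelled libraries. For miR-409-3p these numbers were 3 and 2, and for miR-134-5p 1 and 3. The log2 fold change was negative in 11 of 13 members, against 51.8% of all tested entries, with a median of -0.33 against -0.03. In 4 of the 13 the CPM of the ETBF-labelled libraries lay wholly below the other group, against 19.5% of tested entries. miR-889-3p is among the 4 and the 11 and enters the median. For the reason given above, these values are not read against those of all tested entries either. A member reached the test only with enough counts in as many libraries as a group holds, so these counts describe 13 members and not the 92.

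**Figure D3:**
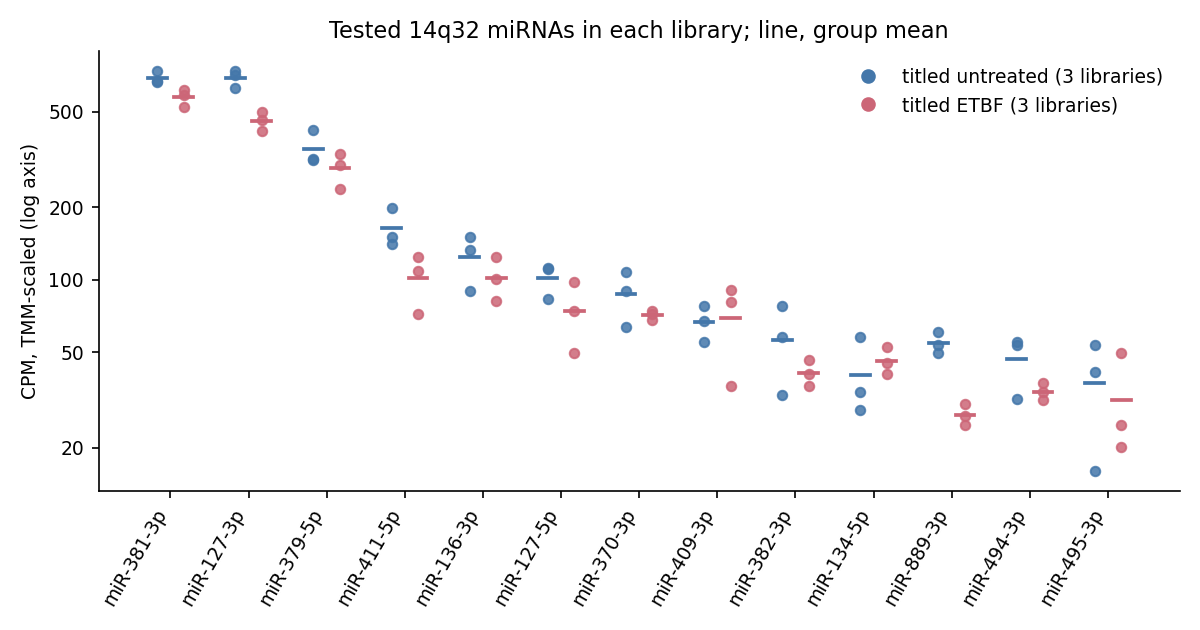
TMM-scaled CPM (log axis) of the 13 tested members, ordered by level; each point is a library and each line a group mean. The groups are apart for miR-381-3p, miR-127-3p, miR-411-5p and miR-889-3p, and overlap for the other 9.

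miR-127-3p was the member with the smallest p. It is processed from the strand opposite RTL1, pairs perfectly with that transcript, and is known as a miRNA silenced in tumours. It held 152, 226 and 222 counts with the untreated label and 137, 92 and 161 with the ETBF label. After scaling, its lowest untreated-labelled library (624.2 CPM) stood above its highest ETBF-labelled library (498.7 CPM). Its mean was 691.5 ± 60.03 CPM against 458.4 ± 41.9 CPM (SD, n = 3), or 1.495-fold lower with the ETBF label, with a log2 fold change of -0.58 (SE 0.12, edgeR adjusted p = 0.0113). It passed in 17 of 17 settings tried, its log2 fold change ranging from -0.66 to -0.37 and its adjusted p reaching 0.0446.

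The other arm of the same hairpin, miR-127-5p, held 17, 40 and 35 counts against 29, 11 and 24. Its log2 fold change was -0.46 (SE 0.26, edgeR adjusted p = 0.265), the groups overlapped, and it did not pass. miR-136-3p, the third tested member of the RTL1 stretch, held 31, 48 and 28 counts against 30, 18 and 40. It did not pass either, at -0.24 (SE 0.25, edgeR adjusted p = 0.540).

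miR-889-3p, from an intron of MIR381HG, was the other member past the threshold. It entered the test only through the group where it was high: 3 untreated-labelled and 0 ETBF-labelled libraries reached the filter's minimum of 36.8 unscaled CPM, so a lower value with the ETBF label was built into its selection. Its 11, 18 and 19 counts with the untreated label and 9, 6 and 8 with the ETBF label are few, but their scaled levels did not overlap. Its mean was 54.7 ± 5.66 CPM against 27.4 ± 2.78 CPM (SD, n = 3), or 1.98-fold lower with the ETBF label, with a log2 fold change of -0.99 (SE 0.26, edgeR adjusted p = 0.0432). The call held in 6 of 17 settings, with adjusted p from 0.0415 to 0.151. It was lost with the DESeq2 Wald test, without the low-count filter, with the 10 CPM filter, with library size only, under scaling on markers of other tissues, with the replicate block, and without any single library other than ETBF-labelled replicate 1.

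miR-381-3p, the most abundant member, comes from the same host transcript. It ranged from 661.6 to 736.6 CPM against 523.3 to 616.4 CPM, with means of 688.9 ± 41.5 and 575.2 ± 47.4 CPM (SD, n = 3). The scaled groups did not overlap, but its log2 fold change of -0.26 (SE 0.11) did not pass (edgeR adjusted p = 0.122). A ratio of members within a library does not depend on scaling, though it shows only unequal change; these ratios were chosen after the values were seen and carry no test. miR-127-3p over miR-381-3p was 1.12, 0.934 and 0.965 with the untreated label and 0.787, 0.793 and 0.809 with the ETBF label. miR-889-3p over miR-381-3p was 0.0809, 0.0744 and 0.0826 against 0.0517, 0.0517 and 0.0402. Both ratios kept the groups apart. The second rests on 6 to 19 miR-889-3p counts per library. A lower miR-889-3p value with the ETBF label was built into its selection, so its ratio adds no support for an unequal change. The groups overlapped for miR-379-5p over miR-381-3p, at 0.430 to 0.632 against 0.457 to 0.569. They also overlapped for miR-411-5p over miR-379-5p, at 0.360 to 0.626 against 0.302 to 0.374. For miR-127-3p over miR-379-5p they were only narrowly apart, at 1.77 to 2.24 against 1.38 to 1.74.

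The neighbours miR-379-5p and miR-411-5p open the long stretch of the cluster and lie in an intron of MEG8. miR-379-5p held 86, 114 and 99 counts against 99, 53 and 97, with overlapping groups and a log2 fold change of -0.23 (SE 0.17, edgeR adjusted p = 0.393). miR-411-5p held 31, 51 and 62 counts against 37, 16 and 35. Its scaled groups did not overlap, at 140.9 to 198.6 CPM and 72.2 to 124.6 CPM, but at -0.66 (SE 0.24) it did not pass (edgeR adjusted p = 0.0910). It passed without ETBF-labelled replicate 1, at -0.85 (adjusted p = 0.0128), and without the low-count filter, at -0.67 (adjusted p = 0.0312).

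The remaining tested members had overlapping groups and did not pass. miR-370-3p, known as a regulator of fatty acid oxidation, held 13, 39 and 28 counts against 22, 16 and 22, with a log2 fold change of -0.33 (SE 0.24). miR-382-3p held 16, 12 and 18 against 12, 8 and 15, at -0.35 (SE 0.34). miR-494-3p stood at -0.43 (SE 0.30) and miR-495-3p at -0.24 (SE 0.48).

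The positive values were those of miR-134-5p, a neuronal miRNA that limits dendritic spine size, and miR-409-3p. miR-134-5p held 7, 21 and 9 counts against 12, 10 and 17, with a log2 fold change of 0.15 (SE 0.32). miR-409-3p held 16, 20 and 21 against 27, 8 and 26, at 0.13 (SE 0.32). Their signs are not stable: miR-134-5p was -0.12 without untreated-labelled replicate 3, and miR-409-3p was -0.11 without ETBF-labelled replicate 1. The edgeR adjusted p of these 6 members, from miR-370-3p to miR-409-3p, ran from 0.393 to 0.774.

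The size of these differences depended on the reference for scaling. An alternative scaling used the markers of other tissues but left out miR-9-5p and miR-9-3p. Those 2 were higher with the ETBF label, with log2 fold changes of 0.34 and 3.40. Of the 44840 pooled counts of the full list, the muscle miRNA miR-1 held 29417 and the liver miRNA miR-122-5p 9362. Both were lower with the ETBF label, at -0.20 and -0.26, so an upward shift was built into this reference. This scaling shifted log2 fold changes of all tested entries up by a median of 0.20. The median of the 13 members then went from -0.33 to -0.13. miR-127-3p kept its call, at -0.37 (SE 0.10, edgeR adjusted p = 0.0285). miR-889-3p was -0.79 (SE 0.26) and lost it (adjusted p = 0.0809), and miR-381-3p came to -0.05 (SE 0.10).

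**Figure D4:**
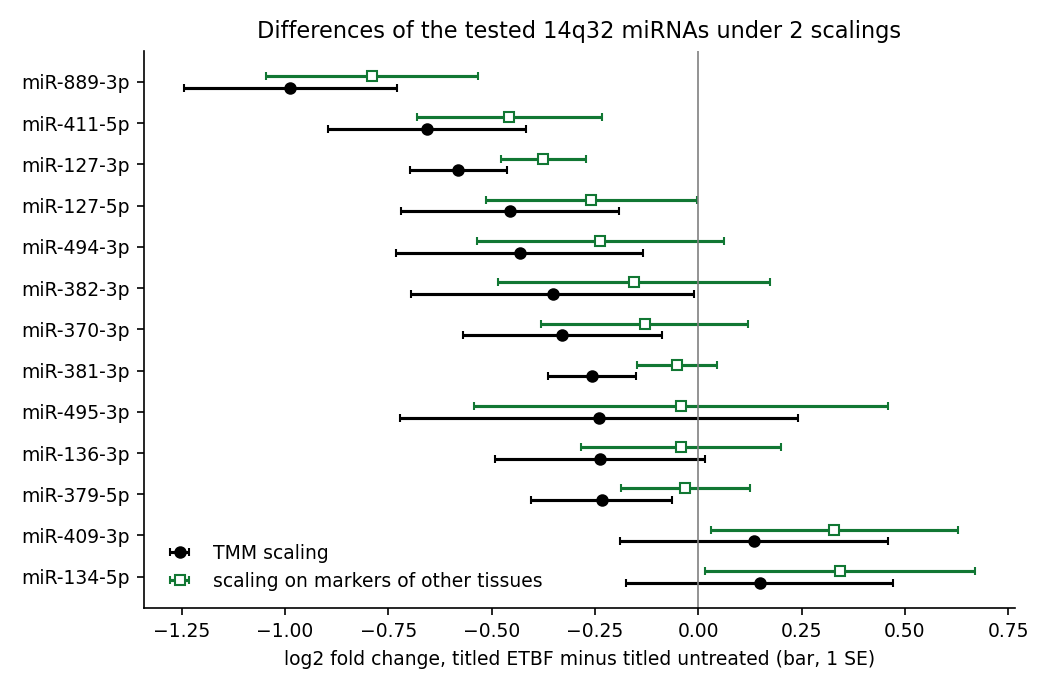
Log2 fold changes, ETBF-labelled minus untreated-labelled, of the 13 tested members with 1 SE, under TMM scaling (filled) and scaling on markers of other tissues (open). The markers used for scaling left out miR-9-5p and miR-9-3p. Each value moves up by about the same amount; miR-889-3p, miR-411-5p and miR-127-3p remain the lowest under both.

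Below the threshold for testing, 52 members were detected with few counts. The nearest to it were miR-493-5p, with 26 and 26 pooled counts in the libraries labelled untreated and ETBF, and miR-369-3p, with 36 and 17. Just inside it were miR-495-3p with 31 and 25 and miR-494-3p with 41 and 29. Of the 52, 31 had a lower and 21 a higher mean CPM with the ETBF label. miR-369-3p had a pooled ratio of 0.494 (exact 95% interval 0.260 to 0.902, counting error only), with 7, 12 and 17 counts against 8, 5 and 4. Its partner arm miR-369-5p had 1, 1 and 4 counts against 0 in each ETBF-labelled library. miR-382-5p had 31 and 16 pooled counts (ratio 0.540, interval 0.276 to 1.02). miR-493-3p had 20 and 22 (1.15, interval 0.599 to 2.22) and miR-323a-3p 16 and 16 (1.05, interval 0.490 to 2.23). These wide intervals limit what single untested members can show at this depth.

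The members of the miR-376 family, whose precursors are known targets of adenosine-to-inosine editing, were near the floor. miR-376c-3p had 10 and 6 pooled counts and miR-376a-3p 12 and 6, while miR-376a-5p had 2 and 5 and miR-376b-3p 1 and 1. miR-376a-3p comes from 2 loci, as does miR-329-3p, with 12 and 2. All 10 values above 0 of these 2 entries were even numbers, against 45.1% of 275 values of members with 1 locus. The cause of the even counts was not tested, and these counts entered the sums and the miR-376a arm share as deposited.

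Few members shared a seed. The 91 sequences had 80 different seeds, and 10 seeds were shared, 9 by a pair and 1 by 3 members. In 5 of the 10, more than 1 member was detected. The pairs that follow show this for the most abundant seed and for the family named after miR-154.
miR-381-3p: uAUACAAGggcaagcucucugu
miR-300: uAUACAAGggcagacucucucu
miR-539-3p: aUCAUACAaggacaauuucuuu
miR-485-3p: gUCAUACAcggcucuccucucu
miR-154-3p: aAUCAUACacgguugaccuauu
miR-487a-3p: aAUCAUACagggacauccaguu
The seed of miR-381-3p and miR-300 was carried by miR-381-3p alone, with 1097 counts against 0. miR-539-3p and miR-485-3p held 13 and 10 counts, summing to 15 with the untreated label and 8 with the ETBF label. miR-154-3p and miR-487a-3p held 6 and 1. Outside the cluster, 3 entries share a seed with a tested member (miR-3529-5p with miR-379-5p, miR-5688 with miR-495-3p and miR-3118 with miR-134-5p), and all 3 were at 0.

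Each hairpin can release a miRNA from either arm, and most here used a preferred one. Of 20 hairpins with both arms listed and at least 20 pooled counts, 14 gave mostly the 3p arm and 6 mostly the 5p arm, and 10 gave over 90% from a single arm. The 3p arm made up 86.7% of the miR-127 counts with the untreated label (exact 95% interval 83.9% to 89.1%) and 85.9% with the ETBF label (82.4% to 89.0%). For miR-379 these shares were 0.993% and 0.797%, for miR-411 7.10% and 11.1%, and for miR-134 0 of 37 and 0 of 39 counts, which allows up to 9.49% and 9.03% (exact 95% intervals). miR-493, miR-382 and miR-409 used both arms, with 3p shares of 43.5%, 59.7% and 70.4% with the untreated label and 45.8%, 68.6% and 73.5% with the ETBF label. The intervals of the groups overlapped in 20 of 20 hairpins; they pool libraries and cover counting error only.

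**Figure D5:**
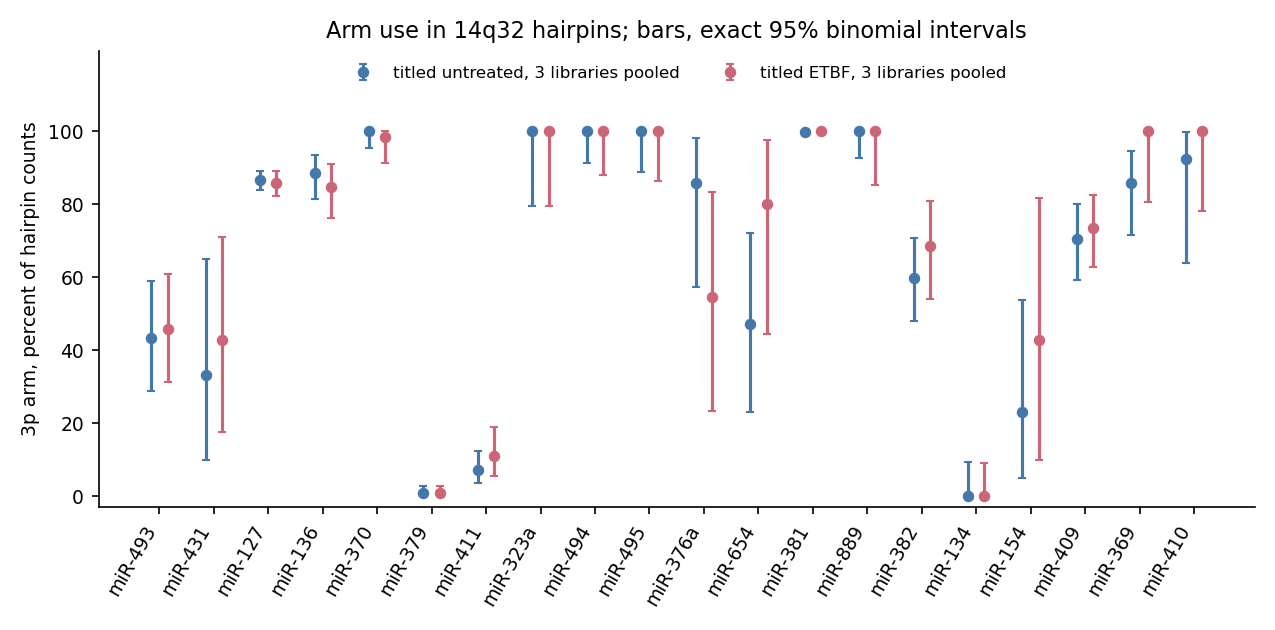
Percent of hairpin counts from the 3p arm in 20 hairpins in genome order, with the 3 libraries of each titled group pooled and exact 95% binomial intervals. miR-379, miR-411 and miR-134 sit at the bottom, most others near the top, and the group intervals overlap for every hairpin shown.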

How the data were processed

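The values deposited by the authors are raw counts, whole numbers, of 2575 mature miRNA entries. RNA was taken with Trizol from centrifuged exosomes and 100 ng entered each library, per the labels' protocols. Trimmomatic, FastQC, featureCounts and the build GRCh37.p5 are named in the submitters' processing notes. Aligner and versions: not given in the sources used here. Entries passing edgeR's filterByExpr (minimum count 10) were kept, which left 195 of 2575, scaled by TMM (factors 0.776 to 1.19) and compared by the quasi-likelihood test of edgeR (two-sided; Benjamini-Hochberg; threshold 0.05). SE was derived by dividing the size of the log2 fold change by the root of the F statistic. In these libraries 3 counts equal 8.29 to 14.6 CPM. Members, lists and comparisons were chosen with earlier results of these data known. Named members are those past the threshold, all tested members, the 10 most abundant, hairpins of the arm comparison and those nearest the filter; miR-369-5p, miR-382-5p, miR-493-3p, miR-323a-3p and the miR-376, miR-329 and seed-pair entries beyond that were chosen after their values were seen. Seeds and gene order come from RefSeq (GRCh38.p14). Alternatives were other scalings, filters, DESeq2, limma-voom, a replicate block and leaving out libraries. On simulated data with 2575 entries, 96.3% of 27 tested entries changed by 2-fold were called for this comparison. The simulation gave every entry the same dispersion. The tested members had a median SE of 0.26 against 0.17 for other tested entries, so this share need not hold for them. Versions were edgeR 4.0.16, DESeq2 1.42.0 and limma 3.58.1 under R 4.3.3, and scipy 1.17.1 under Python 3.11.15.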

Additional observations from a re-analysis of the deposited data

How the results depend on the processing

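The 2 calls among the members became 1, miR-127-3p alone, with library size only, scaling on markers of other tissues, the 10 CPM filter, DESeq2 and the replicate block; leaving out single libraries gave 1 to 3. Over all entries the 28 calls became 50 when scaled on markers of other tissues and 51 with no filter, and 17 (without untreated-labelled or ETBF-labelled replicate 3) to 59 (without ETBF-labelled replicate 1) when single libraries were left out. The replicate block gave 38 calls over all entries; same-numbered libraries deviated together only weakly (r = 0.177, 0.103 and 0.0523 across entries), so the numbers were not taken to pair them, although each library correlated best with its own number except ETBF-labelled replicate 3. Signs turned in 4 of 208 values, all on leaving out a single library, where miR-495-3p ran from -0.67 to 0.0448 (highest without untreated-labelled replicate 1), miR-134-5p from -0.12 (without untreated-labelled replicate 3) to 0.57, and miR-409-3p from -0.11 (without ETBF-labelled replicate 1) to 0.42, with -0.00715 when untreated-labelled replicate 2 was dropped. The summed share of 0.301% with the untreated label and 0.223% with the ETBF label became 0.448% and 0.384% without miR-148a-3p in the total and 0.230% and 0.167% without miR-381-3p. It was 0.384% with the untreated label without miR-7641, miR-6087 and miR-1246, and 0.225% there without miR-127-3p and miR-889-3p, the last chosen after the data were seen. Leaving out single libraries gave 0.294% to 0.314% and 0.193% to 0.243%. Of the 65 detected members, 31 had a count in all 6 libraries and 37 at least 10 counts. The causes of these moves were not tested.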

Other observations

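A few counts came from other imprinted miRNAs. Of 9 entries for miR-483, miR-675, miR-296, miR-298 and miR-335, which come from other imprinted loci, 7 were detected with 129 counts in all and none had enough to be tested. miR-335-3p held 35 pooled counts with the untreated label and 22 with the ETBF label, miR-335-5p 19 and 20, and miR-296-3p 6 and 8. miR-483-3p, from an intron of IGF2, held 3 and 4. miR-675-3p, from H19, held 4 and 0, while miR-675-5p and miR-298 were at 0. Their summed level was 74.5 ± 22.4 CPM with the untreated label and 70.8 ± 5.73 CPM with the ETBF label (SD, n = 3), with overlapping groups, at 48.6 to 88.4 and 67.4 to 77.4 CPM.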
